A study of Rattus norvegicus with 60 samples.

Results

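Snx10, the gene of sorting nexin 10, is 1 of 14217 gene symbols on the arrays and is measured by 2 of their 31042 probe sets, 1379275_at and 1383585_s_at. These are all the probe sets that carry the symbol Snx10 in the platform's annotation. The gene was chosen by its log2 differences between the rat lines on these same arrays, in the mean over regions and by region. The line values below are therefore a description and carry no test. A probe set is the array's unit for a transcript, and 18625 of them had a mean signal at or above the 40th percentile of all (7.68 log2 units). Both Snx10 probe sets were among these.

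Sorting nexins share a phox homology domain, which binds the lipid phosphatidylinositol 3-phosphate on endosomes and so brings the protein to these compartments. Sorting nexin 10 consists of little more than this domain, takes part in the traffic and acidification of endosomes together with the proton pump V-ATPase, and makes cells form large vacuoles when overexpressed. It is best known from osteoclasts, where its loss gives osteopetrosis, and it is also made in the brain.

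The arrays hold RNA of 12 adult rats, 6 of the NP line, bred for low alcohol preference, and 6 of a congenic line on the NP background. The labels call the second line congenic only; from what is known of the study, its donor segment lies on chromosome 4, like Snx10, and comes from rats of the P line, bred to prefer alcohol. All rats were untreated apart from handling, and each gave accumbens, amygdala, frontal cortex, hippocampus and striatum, for 60 arrays in all. A line difference at 1 gene is thus measured beside every other gene of the segment, whose ends are not given in the sources used here. In RNA of whole tissue, fewer cells that make a transcript and less transcript per cell cannot be told apart. The probe sequences were not in the sources used here. Whether a sequence difference between the lines lies under the Snx10 probes was not tested.

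Array medians lay between 8.23 and 8.35 log2 units. On 7 arrays the profile stood apart from the labelled region: amygdala congenic 3, amygdala NP 6, hippocampus congenic 3, hippocampus NP 8, hippocampus NP 11, accumbens NP 8 and accumbens congenic 9, where the number is the animal's. The array labelled amygdala congenic 3 was most like hippocampus and that labelled hippocampus congenic 3 most like amygdala. Likewise, the array labelled accumbens NP 8 was most like hippocampus and that labelled hippocampus NP 8 most like accumbens. The array of accumbens congenic 9 had a median correlation of only 0.831 with the other accumbens arrays. No label was changed. Most results for the Snx10 probe sets are given with and without the 7, and those for the gene lists and neighbours are from all arrays unless stated. Markers of medium spiny neurons lay 1.55 log2 units above the mean of the regions in striatum and 0.95 above it in accumbens, and hippocampal markers were highest in hippocampus. The cortex list went against the label, at 0.27 in frontal cortex and 0.57 in striatum.

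For orientation, the reference sequence just upstream of the first annotated start of Snx10 is given from RefSeq (GRCr8 build, plus strand, chr4:81943073-81943261), with the GC box letters GGGCGG in capitals. It comes from the reference rat and not from either line, and the arrays do not measure it.
Snx10 upstream window: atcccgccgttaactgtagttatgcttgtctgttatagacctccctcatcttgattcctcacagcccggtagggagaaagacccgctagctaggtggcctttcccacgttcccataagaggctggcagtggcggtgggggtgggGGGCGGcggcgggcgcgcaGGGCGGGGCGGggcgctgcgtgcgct
The 189 bases are 64.6% G and C, more than in 85.3% of the upstream windows of the same length, whose median is 50.8%. They hold 16 CpG dinucleotides, against a median of 4. GGGCGG, searched on both strands with overlaps counted, matched 3 times, and 22.3% of 33469 windows hold it at least once. The letters TATAAA, held by 9.5% of windows, and CCAAT, held by 27.3%, are not in this window. Neither are TGACGTCA, the cyclic AMP response element (0.789% of windows), nor TGANTCA, the AP-1 element (4.9%).

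Snx10 signal at probe set 1379275_at was higher in congenic than in NP rats in 4 of the 5 regions, with no overlap of the lines, and the accumbens joined them once a single array was left out. In the mean over the 5 regions of each animal, the NP rats 5, 6, 7, 8, 11 and 12 had log2 values of 9.97, 10.11, 9.83, 9.79, 9.75 and 9.92. The congenic rats 1, 2, 3, 4, 9 and 10 had 10.48, 10.43, 10.52, 10.49, 9.78 and 10.50. Congenic rats 1 to 4 and 10 all lay above every NP rat, and congenic rat 9 lay among the NP rats. The NP mean was 9.90 ± 0.13 and the congenic mean 10.37 ± 0.29 (SD over 6 rats per line). The congenic minus NP difference was 0.47 ± 0.11 log2 units (SE), or 1.39-fold, the 7th of 18625 by size. In this comparison, whose values chose the gene, limma called 0.123% of probe sets at an adjusted p under 0.05. No call is given for Snx10 itself. Without the 7 arrays the difference was 0.59 ± 0.04, or 1.50-fold.

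**Figure D1:**
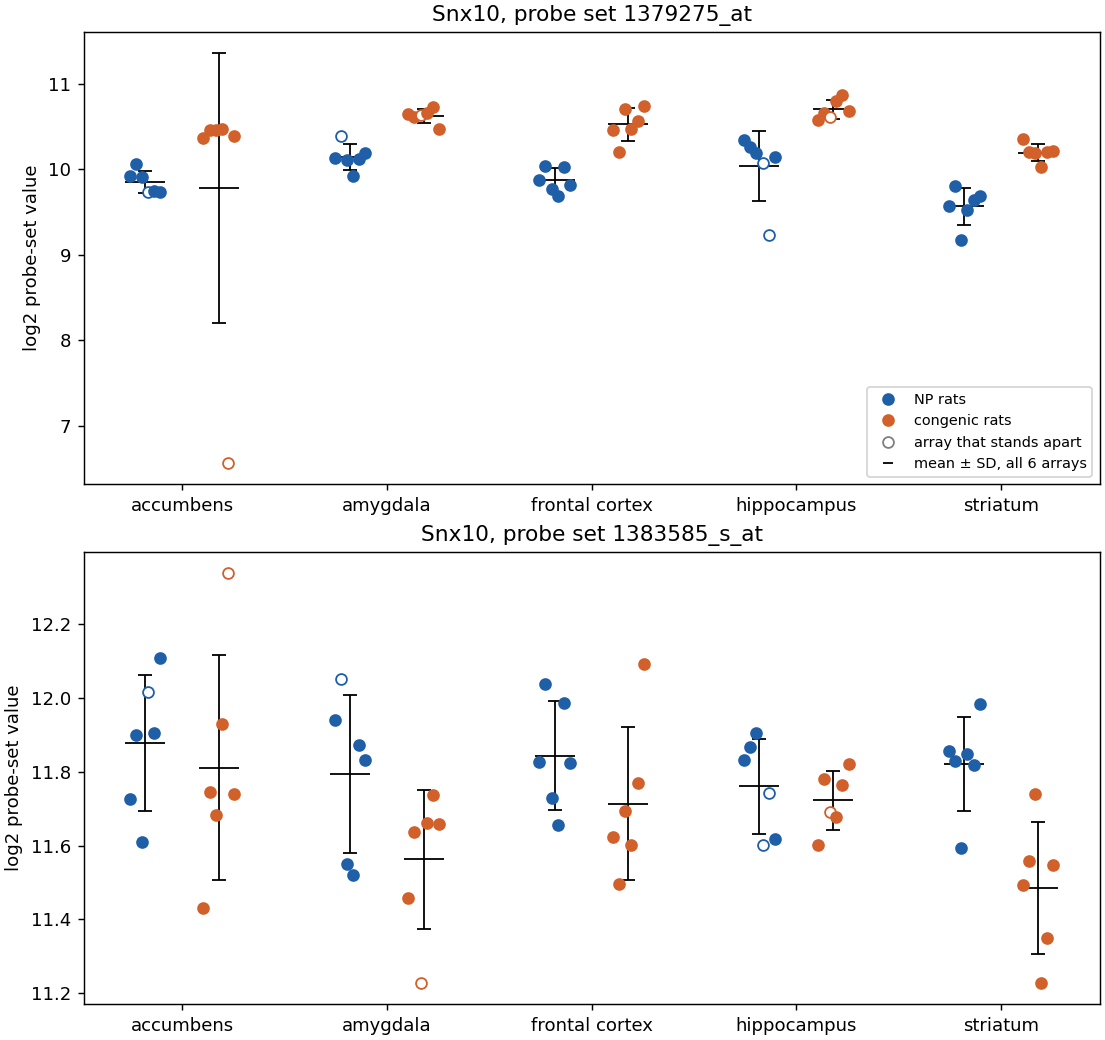
Log2 values of the Snx10 probe sets 1379275_at (top) and 1383585_s_at (bottom) on each of the 60 arrays, by region and line; open circles are the 7 arrays that stand apart, and bars show the mean ± SD of 6 arrays. At 1379275_at the congenic arrays sit above the NP arrays in each region except for the accumbens array of congenic animal 9 at 6.56, whereas at 1383585_s_at the lines overlap in all 5 regions.

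In striatum, the region with the lowest levels of 1379275_at in most animals, the NP arrays ranged from 9.18 through a median of 9.60 to 9.81. The congenic arrays ranged from 10.03 through 10.20 to 10.35. The lines did not overlap, and the lowest NP value, that of animal 7, stood below the other NP arrays. The difference was 0.63 ± 0.08 (1.55-fold). In striatum the congenic arrays lay above all NP arrays at 0.102% of the probe sets.

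In frontal cortex, which held no array that stood apart, the NP arrays ran from 9.69 through 9.84 to 10.04 at 1379275_at. The congenic arrays ran from 10.21 through 10.52 to 10.75. Again the lines did not overlap, as at 0.231% of probe sets in this direction, and the gap between them was narrow because congenic animal 2 lay low. The difference was 0.66 ± 0.09 (1.58-fold).

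In amygdala the NP arrays ran from 9.92 through 10.12 to 10.39, and the congenic arrays from 10.47 through 10.64 to 10.73. The lines did not overlap, a pattern of 0.113% of probe sets, but they came close: the highest NP array, that of animal 6, is one of those that stand apart. The difference was 0.48 ± 0.07 (1.40-fold), and 0.53 ± 0.06 without the arrays of congenic animal 3 and NP animal 6.

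In hippocampus the NP arrays ran from 9.23 through 10.17 to 10.34, and the congenic arrays from 10.58 through 10.67 to 10.87. No NP array reached the lowest congenic one, as at 0.0805% of probe sets. NP animal 11 lay far below the rest of its group and widened the difference, which was 0.66 ± 0.15 (1.58-fold) with all arrays. Without the 3 hippocampal arrays that stand apart, it was 0.48 ± 0.07 (1.40-fold).

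In accumbens the NP arrays ran from 9.73 through 9.83 to 10.06. Of the congenic arrays, 5 lay close together between 10.37 and 10.47, above all NP arrays, and that of animal 9 lay at 6.56. The difference over all 12 arrays was -0.07 ± 0.58, and this 1 array set its sign. Without it the difference was 0.58, and without the accumbens arrays of both NP animal 8 and congenic animal 9 it was 0.55 ± 0.06 (1.47-fold). With both left out the lines did not overlap, as at 0.36% of probe sets in this direction, against 0.0644% with all 12 arrays. In its other regions congenic animal 9 had 10.20 in striatum, 10.56 in frontal cortex, 10.73 in amygdala and 10.87 in hippocampus, the last 2 being the highest values of their groups.

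On the accumbens array of congenic animal 9, other genes were low as well as Snx10, though not all of the marker lists were. Its 1379275_at value minus the mean of the other 5 congenic accumbens arrays was -3.87 log2 units, and 92 of the 18625 probe sets lay still lower by the same measure. The mean of the oligodendrocyte markers was 11.03 there, against 12.65 to 12.81 on the other 5. Astrocyte markers were at 10.42 against 11.72 to 11.83, neuron markers at 11.87 against 12.31 to 12.49, and medium spiny neuron markers at 10.32 against 10.75 to 11.36. Microglia markers were at 9.26 against 9.44 to 9.58, hippocampus markers at 8.68 against 9.39 to 9.54 and cortex markers at 8.47 against 8.82 to 9.04. Choroid plexus markers, at 8.49, lay just below the other arrays (8.55 to 10.70), and endothelium markers, at 9.58, lay among them (9.47 to 9.69). The part of these shifts in the Snx10 value was not tested. The other probe set of the gene, 1383585_s_at, lay 0.63 higher on this array than the mean of the other 5.

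**Figure D2:**
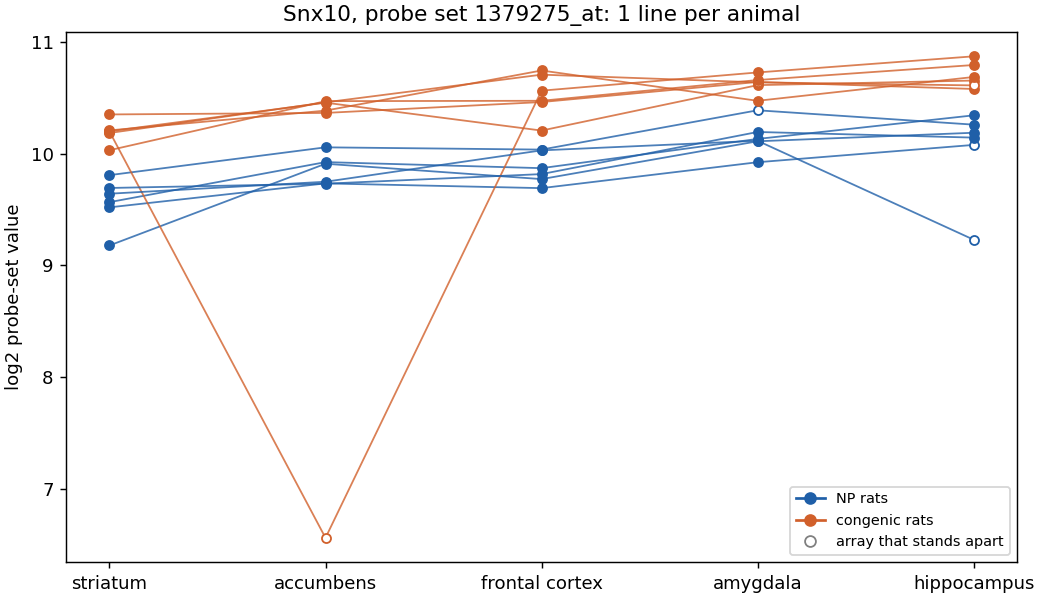
Log2 value of Snx10 probe set 1379275_at across the 5 regions, with 1 line per animal (blue NP, orange congenic) and open circles for arrays that stand apart. The NP and congenic bundles run alongside each other, lowest in striatum in 10 of 12 animals, and are broken by the accumbens array of congenic animal 9 (6.56) and the hippocampal array of NP animal 11 (9.23).

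Counted over regions, 1379275_at separated the lines completely in 4 of 5 regions, in the same direction each time. Over all probe sets, 5 of 18625 (0.0268%) did so in at least 4 regions in 1 direction: that of Snx10, 1 of Ppm1k, the mitochondrial phosphatase gene, which was lower in congenic rats, and the unnamed 1378742_at, 1391305_at and 1395714_at. Without the 7 arrays the lines were separate at 1379275_at in 5 of 5 regions, a pattern of 6 probe sets (0.0322%). These counts share the contrast by which the gene was chosen.

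The other probe set, 1383585_s_at, pointed the opposite way, with a smaller difference in the mean over regions. In the maker's naming, the suffix s marks a probe set whose probes match more than 1 transcript. The animal means of NP rats 5, 6, 7, 8, 11 and 12 were 11.84, 11.94, 11.68, 11.73, 11.87 and 11.87. Those of congenic rats 1, 2, 3, 4, 9 and 10 were 11.52, 11.64, 11.61, 11.62, 11.79 and 11.77. The lines overlapped, with congenic rats 9 and 10 above NP rats 7 and 8. The NP mean was 11.82 ± 0.10 and the congenic mean 11.66 ± 0.10 (SD over 6 rats per line), a difference of -0.16 ± 0.05 (SE). It ranked 249th of 18625 by size and stayed at -0.16 ± 0.05 without the 7 arrays.

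By region, the 1383585_s_at difference was negative everywhere and uneven in size. Striatum had the widest, -0.34 ± 0.08, with NP arrays from 11.59 through 11.84 to 11.98 and congenic arrays from 11.23 through 11.52 to 11.74. Most congenic arrays there lay below most NP arrays, but the ranges crossed. The difference was -0.23 ± 0.11 in amygdala, where it was -0.11 ± 0.09 without the arrays that stand apart, and -0.13 ± 0.09 in frontal cortex. In accumbens it was -0.07 ± 0.14 with all arrays and -0.14 ± 0.10 without the arrays that stand apart. In hippocampus it was -0.04 ± 0.06 and -0.08 ± 0.07. The lines overlapped in all 5 regions, so where 1379275_at separated NP from congenic rats, 1383585_s_at did not.

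**Figure D3:**
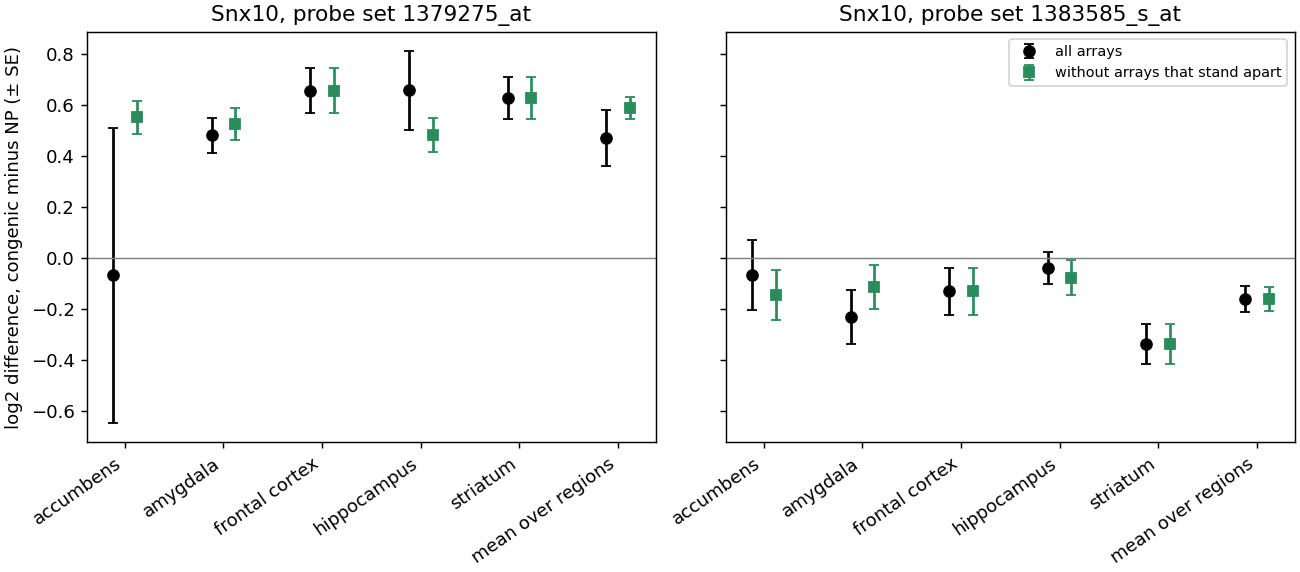
Congenic minus NP difference in log2 units (± SE) of each Snx10 probe set by region and in the mean over regions, with all arrays (circles) and without the 7 arrays that stand apart (squares). With all arrays, 1379275_at lies between 0.48 and 0.66 by region apart from the accumbens value of -0.07, which becomes 0.55 without the 7, and at 0.47 in the mean over regions, and 1383585_s_at lies between -0.34 and -0.04 with all arrays.

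Whether animals with more signal at one probe set had more at the other was tested within each line on the animal means. In NP rats Pearson's r was 0.62 (exact permutation p = 0.196) and Spearman's rho 0.49 (exact permutation p = 0.356), n = 6. Without the 2 rats farthest from the median of the NP group r was 0.81. In congenic rats r was -0.62 (exact permutation p = 0.203) and rho -0.43 (exact permutation p = 0.419), n = 6, and without the 2 farthest rats r was 0.32. The negative relation thus rested on those rats, congenic 9 among them. Adjusted over the 2 lines, both Pearson p-values were 0.203 and both rank p-values 0.419. Without the 7 arrays r was 0.85 in NP rats (exact permutation p = 0.0264, adjusted over the lines 0.0528) and 0.39 in congenic rats (exact permutation p = 0.428), and rho was 0.66 (p = 0.175) and 0.60 (p = 0.242). After the mean of each line and region was taken out, the probe sets correlated over arrays at -0.30 on all 60 and at 0.51 on the 53 left, with arrays of 1 animal among them.

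The line by region interaction, for line effects of unequal size in the regions, is built from the same line differences by which the gene was chosen, so no test of it is given for Snx10. Over all 18625 probe sets, the limma F test of the interaction called 0, or 0%, with all arrays (726 at an unadjusted p under 0.05), and without the 7 arrays it called 2, or 0.0107% (2006).

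Of the spread of 1379275_at over the 60 arrays, line took 15.1%, region 15.6% and the rest 69.3%. Without the 7 arrays these shares were 60.3%, 28.3% and 11.4%. For 1383585_s_at line took 15.0% and region 11.1% with all arrays, and 20.8% and 8.93% without the 7. Most of its spread thus fell to the rest, which also holds any line effect that differed by region. The SD within line and region was 0.533 log2 units for 1379275_at with all arrays, wider than for 98.9% of probe sets, and 0.137 without the 7. For 1383585_s_at it was 0.185 and 0.161, against medians of 0.144 and 0.111 over all probe sets.

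The level of Snx10 across regions was a separate question from the line difference. At 1379275_at the means over 12 animals were 9.82 ± 1.07 in accumbens, 9.88 ± 0.37 in striatum, 10.20 ± 0.38 in frontal cortex, 10.37 ± 0.45 in hippocampus and 10.39 ± 0.28 in amygdala (SD, both lines). Striatum gave the lowest value of 10 of the 12 animals. The highest value lay in hippocampus in 6 animals, in amygdala in 4 and in frontal cortex in 2. These counts by animal are from all arrays with their labels as given, those that stand apart included. When each region was set against the average of the remaining 4, accumbens was lower by the test (-0.39 ± 0.17, limma, adjusted p = 0.0397). That call rested on the array of congenic animal 9: without it the difference was -0.06 (adjusted p = 0.347), and the call also ended with quantile normalization (-0.29, adjusted p = 0.148).

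Leaving out only the accumbens array of congenic animal 9 was chosen after seeing the data. Without that 1 array, striatum fell by 0.39 on the log2 scale against the other regions (limma, adjusted p = 1.45e-08), while amygdala was higher by 0.24 (adjusted p = 2.96e-04) and hippocampus by 0.22 (adjusted p = 6.49e-04). With all arrays these 3 were not called, at -0.31 (adjusted p = 0.0962), 0.32 (adjusted p = 0.114) and 0.30 (adjusted p = 0.127). Without all 7 arrays the striatal difference was -0.42 ± 0.04 (adjusted p = 1.73e-12), the hippocampal 0.31 ± 0.05 (adjusted p = 1.02e-07) and the amygdalar 0.21 ± 0.04 (adjusted p = 5.43e-05). Frontal cortex was not called in either case (0.08, adjusted p = 0.679, and -0.02, adjusted p = 0.661). Regions differ at most transcripts: with all arrays these contrasts called 69.6% of all probe sets for striatum, 62.4% for accumbens, 61.3% for frontal cortex, 54.3% for hippocampus and 47.8% for amygdala. On the 53 remaining arrays the shares were 78.2%, 70.4%, 72.4%, 64.8% and 62.8%, in the same order of regions. A call between regions is thus no mark of this gene.

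In the order of levels without the 7 arrays, striatum (9.88) came first, then accumbens (10.15), frontal cortex (10.20), amygdala (10.36) and hippocampus (10.50). Accumbens lay above striatum by 0.26 ± 0.05 (limma, adjusted p = 3.50e-05) and amygdala above frontal cortex by 0.19 ± 0.05 (adjusted p = 0.00245). The neighbours accumbens and frontal cortex did not differ beyond their spread (-0.06 ± 0.05, adjusted p = 0.337), nor did amygdala and hippocampus (-0.08 ± 0.06, adjusted p = 0.250). Of the 10 pairs of regions, 8 were called, where all probe sets together were called in 66.9% of their pairs. With all arrays 4 were called, against 56.4%, and with quantile normalization 0. Oligodendrocyte markers were highest in striatum, 0.32 above the mean of the regions, and choroid plexus markers highest in hippocampus, 2.46 above it. The part of such differences in tissue makeup in the Snx10 levels was not tested.

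At 1383585_s_at the order was another one and hardly stood above the spread. Accumbens was highest (11.84 ± 0.24), then frontal cortex (11.78 ± 0.18), hippocampus (11.74 ± 0.10), amygdala (11.68 ± 0.23) and striatum (11.65 ± 0.23), over 12 animals each (SD). Accumbens was called above the other regions by 0.13 (limma, adjusted p = 0.0398), and 2 of 10 pairs were called, accumbens over amygdala (0.17, adjusted p = 0.0427) and over striatum (0.19, adjusted p = 0.0207). Without the array of congenic animal 9, no region and no pair was called, and accumbens lay at 0.08 (adjusted p = 0.177). Striatum was the lowest region by the mean at this probe set, without a call.

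The line differences of the other sorting nexins were smaller in size than those of both Snx10 probe sets. Snx10 was chosen by this contrast and the others were not, so that order follows in part from the choice. Of a list of 29 further genes of the family, 24 are on the array and 23 passed the filter, by 30 probe sets. None of the 30 passed limma's test between the lines in the mean over regions, against 0.123% of all probe sets. At that share, no call among 30 probe sets is near the background. At an unadjusted p under 0.05 there was 1, Snx6, which works with the retromer coat, at -0.07 (limma, adjusted p = 0.911). The differences ran from -0.10 for 1 of the probe sets of Snx27, a retromer partner that recycles receptors to the synaptic surface, to 0.05 for Snx9, which works in endocytosis. Their median was -0.00539, and that of all probe sets -0.00197. Among the relatives that like Snx10 have little beyond the phox homology domain, Snx3 lay at -0.02, Snx12 at -0.02 and the 2 probe sets of Snx11, the closest relative, at -0.05 and 0.05.

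**Figure D4:**
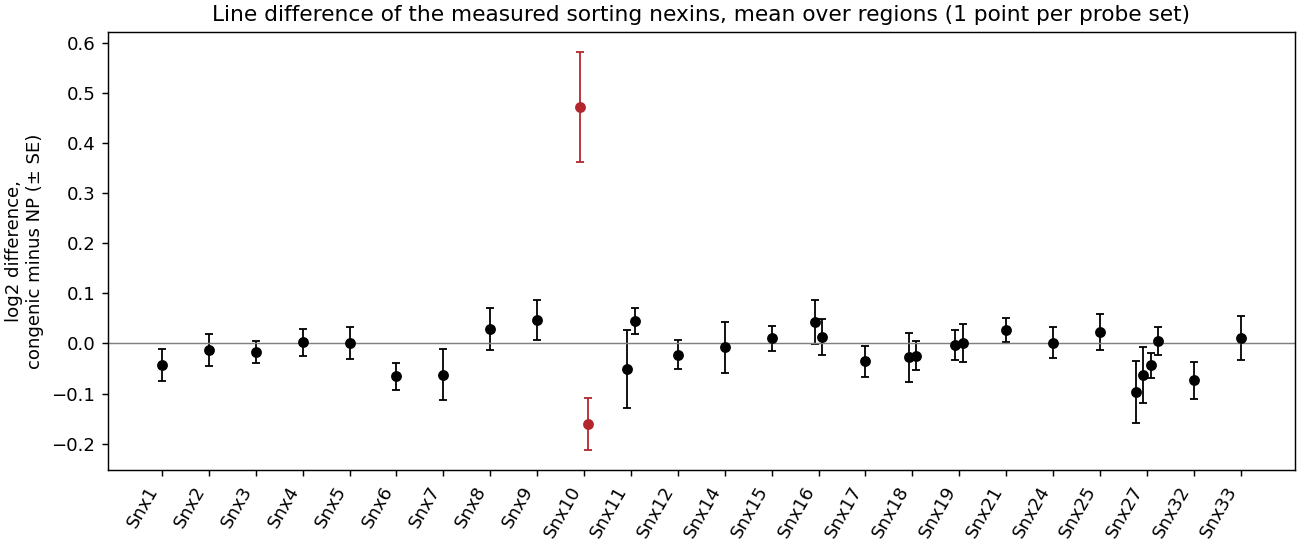
Congenic minus NP difference in the mean over regions (log2 units, ± SE, 12 animals) for every sorting nexin probe set that passed the filter, with Snx10 in red and each other gene in black. The 30 black points lie between -0.10 and 0.05, and the probe sets of Snx10, the gene chosen by this contrast, lie at 0.47 and -0.16.

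Between regions many of the family's probe sets were called, as were those of most genes. In striatum 3 of the 30 probe sets were higher and 19 lower (73.3% called, against 69.6% of all), with Snx16 (-0.44, limma, adjusted p = 1.84e-09), a sorting nexin of early and late endosomes, and Snx18 (-0.41, adjusted p = 3.75e-15), a membrane-bending member, the furthest down. With quantile normalization the split was 5 higher and 15 lower. Snx11 was lower there at 1 probe set (-0.29, adjusted p = 8.90e-08) and not called at the other (-0.06, adjusted p = 0.598). Snx12 was higher (0.09, adjusted p = 0.00578), and Snx3 was not called (0.02, adjusted p = 0.231). The median of the family was -0.15, beside -0.07 over all probe sets.

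In hippocampus 10 sorting nexin probe sets were higher and 2 lower (40% called, against 54.3%), a split of 6 and 4 with quantile normalization. Without the 7 arrays it was 14 and 2 (53.3%, against 64.8%). Snx24 was highest (0.30, limma, adjusted p = 1.89e-09) and Snx8, which acts in transport from endosomes to the Golgi, was lower (-0.24, adjusted p = 0.0167). Snx8 was also the most raised in amygdala (0.46, adjusted p = 1.87e-05). In amygdala 10 were higher and 2 lower (40% called, against 47.8%) and in frontal cortex 16 and 4 (66.7%, against 61.3%), but quantile normalization gave 5 and 5, and 9 and 7. In accumbens the split of 5 higher and 14 lower (63.3%, against 62.4%) turned to 13 and 9, so no direction of the family is given there.

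The partners of Snx10 were examined by 4 further lists. V-ATPase subunits, the proton pump to which sorting nexin 10 is tied, gave 26 probe sets, and none was called between the lines (2 with an unadjusted p under 0.05, median -0.03). None was called either of 17 probe sets of the retromer and of the WASH complex, which sorts cargo on endosomes with it (1 with an unadjusted p under 0.05, median -0.03). The same held for 34 of enzymes and readers of phosphatidylinositol 3-phosphate (2, median -0.01) and for 8 of osteoclast and osteopetrosis genes (0, median -0.00161). With 0.123% of all probe sets called, no call in lists of these sizes is near the background share. Without the 7 arrays none was called either. The Snx10 difference itself carries no test to set beside these lists.

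In striatum, 3 of the 17 retromer and WASH probe sets were higher and 13 lower (94.1% called, against 69.6% of all), and quantile normalization gave 3 and 11. The WASH subunit Washc4 fell by 0.47 (limma, adjusted p = 2.28e-12), the retromer core subunit Vps26a by 0.40 (adjusted p = 5.81e-11) and Washc3 by 0.37 (adjusted p = 4.44e-08). In hippocampus, 11 were higher and none lower (64.7% called, against 54.3%), or 8 and 1 with quantile normalization. Vps26a led there (0.44 and 0.39 at its 2 probe sets, adjusted p = 6.10e-05 and 5.53e-10), followed by Washc4 (0.30, adjusted p = 3.91e-07).

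V-ATPase subunits split in striatum. Atp6v0a1, the membrane subunit that prevails in neurons, was higher by 1.06 (limma, adjusted p = 1.46e-22), whereas Atp6v0e1 fell by 0.71 (adjusted p = 1.10e-18) and Atp6v1g1 by 0.40 (adjusted p = 6.16e-12). In all, 4 of the 26 probe sets were higher and 14 lower in striatum (69.2% called, against 69.6%), and 12 higher and 1 lower in hippocampus (50%, against 54.3%). With quantile normalization the splits were 5 and 13, and 11 and 2. The pump's genes thus went in both directions, and their share of calls was near the background.

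Readers and enzymes of the lipid that sorting nexins bind were called at 8 higher and 11 lower of 34 in striatum (55.9%, against 69.6%) and at 12 higher and none lower in hippocampus (35.3%, against 54.3%), or at 11 and 9, and 7 and 1, with quantile normalization. Without the 7 arrays the splits were 9 and 16 (73.5%, against 78.2%), and 16 and 2 (52.9%, against 64.8%). Rab5b, a GTPase of early endosomes, was higher in striatum (0.66, limma, adjusted p = 1.72e-08), and Zfyve16, a protein that binds the lipid by its FYVE domain, fell by 0.50 (adjusted p = 6.04e-15). Of the osteoclast and osteopetrosis list, 6 of 12 genes passed the filter. Car2, a carbonic anhydrase, was higher in hippocampus at both its probe sets (0.57 and 0.46, adjusted p = 8.62e-07 and 8.00e-09), and Ctsk, the osteoclast protease cathepsin K, fell by 0.34 in striatum (adjusted p = 1.59e-07). Choroid plexus markers, as given above, were highest in hippocampus too. Oligodendrocyte markers lay 0.21 above the mean of the regions in hippocampus and 0.32 above it in striatum. The part of either list in the Car2 values was not tested.

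Along chromosome 4, Snx10 is number 215 of 590 measured genes in the GRCr8 gene order. Measured here means that a probe set with 1 symbol passed the filter, and genes without one are left out of the order. The 10 measured genes on either side gave 34 probe sets, with differences between -0.38 and 0.18 and a median of -0.02. Limma called 2 of them, both lower in congenic rats. Of the 4 filtered probe sets of Hnrnpa2b1, the RNA-binding protein gene measured just before Snx10, 1 lay at -0.30 ± 0.04 (limma, adjusted p = 0.00238). Of the 3 of Creb5, a transcription factor gene 5 places after Snx10 in this order, 1 lay at -0.38 ± 0.05 (adjusted p = 0.00177). The other probe sets of these genes lay at -0.13, -0.01 and 0.00, and at -0.18 and -0.04. Over all probe sets 0.123% were called and 0.0537% were called lower.

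The gene measured just after Snx10, the adaptor gene Skap2, lay at -0.16 ± 0.04 and was not called (limma, adjusted p = 0.304). Npy, which encodes neuropeptide Y, 5 places before Snx10, lay at -0.10 (adjusted p = 0.700), and the 5 probe sets of Pals2, a scaffold protein gene between them, ran from 0.04 to 0.18 without a call. The remaining neighbours Tmem176a, Gpnmb, Malsu1, Tra2a, Ccdc126, Osbpl3, Npvf, Hibadh, Tax1bp1, Jazf1, Tril, Chn2, Wipf3, Scrn1 and Fkbp14 were not called, at -0.13 to 0.08. No neighbour was called higher in congenic rats. Among the neighbours the values ran from -0.38 to 0.18, beside 0.47 at 1379275_at. Snx10 was chosen by this contrast, so its place above the neighbours follows in part from the choice.

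**Figure D5:**
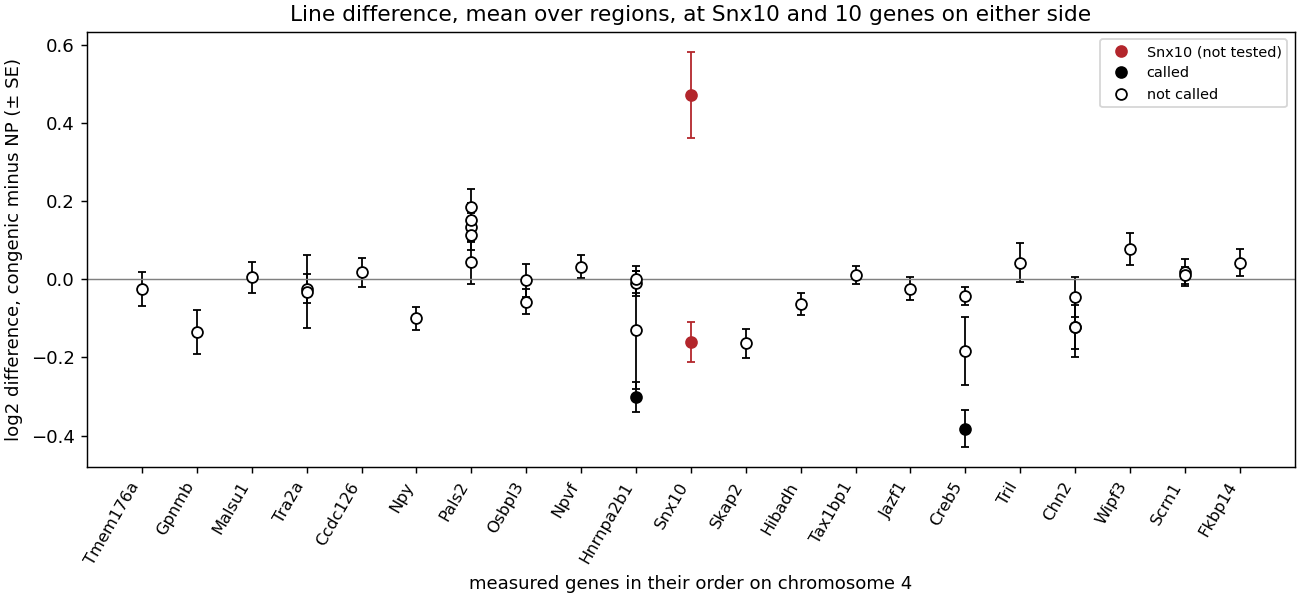
Congenic minus NP difference in the mean over regions (log2 units, ± SE, 12 animals) for every probe set that passed the filter of Snx10 (red, not tested) and of the 10 measured genes on either side, in their order on chromosome 4. Filled black points were called by limma at an adjusted p under 0.05. Only 1 probe set each of Hnrnpa2b1 (-0.30) and Creb5 (-0.38) was called, and the other neighbours lie between -0.18 and 0.18.

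The genes most like Snx10 were looked up by Pearson's correlation over the arrays, given as a description, since arrays share animals, lines and regions. For 1379275_at over all 60 arrays they were Bpgm (0.894), a mutase of red cell glycolysis on chromosome 4, then Wars1, Gcdh, Zyg11b, Opa1 and Map1b (0.868 to 0.853). With the mean of each line taken out, Opa1 (0.972), a gene of mitochondrial fusion, led with Caprin1, Zyg11b, Csnk1a1, Nedd4 and Scoc. The 60 arrays include the accumbens array of congenic animal 9, at 6.56 for 1379275_at, where other genes were low as well. Its part in these correlations was not tested. On the 53 arrays without the 7, the list began with 3 genes of chromosome 4: Akr1b1, the aldose reductase gene (0.841), Pdia4, a disulfide isomerase gene (0.799), and Bpgm (0.727). Sos1, Zfp956 and Pgm2l1 followed. With line means taken out as well, Cct5 (0.898), a chaperonin subunit gene, Ttc9c, Opa1, Alg2, Psmd6 and Sdf2 came first. Zyg11b and Opa1 were named on all 60 arrays with and without line means, and Opa1 also on the 53 arrays with line means taken out.

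For 1383585_s_at the highest correlations were lower. Over 60 arrays they were with Ank2, an ankyrin gene of neurons (0.720), Cul3, Psmc6, Tmem33, Cacybp and Pgpep1, and with line means taken out with Ank2 (0.778), Eif2a, Psmc6, Pgpep1, Ckap5 and Ints2. Over the 53 arrays Tsc22d2 (0.688) came first, followed by Utp18, Vcpip1, Med21, Mrps18c and Ank2. With line means taken out there, Ank2 (0.681), Csnk1g3, Ints2, Asb3, Tsc22d2 and Amn1 led. No gene of these lists was among those named for 1379275_at.

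No cell type marker was called between the lines in the mean over regions. Of 9 marker lists, for neurons, astrocytes, microglia, oligodendrocytes, endothelium, choroid plexus, medium spiny neurons, hippocampus and cortex, none held a called probe set. Over all probe sets 0.123% were called, so no call in lists of these sizes is near the background. The mean levels of the animals overlapped in each list. For microglia, the brain's resident phagocytes, they ran from 9.45 to 9.57 in NP and from 9.43 to 9.54 in congenic rats. Medium spiny neuron markers ran from 10.16 to 10.42 in NP and from 10.04 to 10.23 in congenic rats. In that list 7 of 17 probe sets had an unadjusted p under 0.05, with a median difference of -0.08, and 3 of 17 did without the 7 arrays (median -0.03). In the amygdala alone it was 9 of 17, with a median of -0.70, and 3 of 17 without the 7 arrays (median -0.27), again with none called. In the mean over regions with all arrays, the lists for astrocytes, neurons and hippocampus held 2, 1 and 1 such probe sets, and the other 5 lists held none. The share of all probe sets under this unadjusted p is not given, so these counts have no background beside them. The part of these shifts in the Snx10 values was not tested.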

How the data were processed

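RNA of 5 brain regions from 12 rats was labelled and hybridized separately, per the labels' protocols. The deposited values are log2 signals per probe set, summarized by the authors. Background correction and normalization were not given in the sources used here. Control probe sets (57) were left out, and a filter kept probe sets from the 40th percentile of mean signal upward. Symbols come from the platform annotation (20826 probe sets with 1 symbol, 436 with several), and gene order from the GRCr8 gene table. The precision is set by the 6 animals per line, since arrays have no depth.

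Analyses used limma 3.58.1 in R 4.3.3 with the package data.table (1.17.8), and figures were drawn in Python 3.11.15 (matplotlib 3.10.9, numpy 2.4.6). Lines were compared on animal means over regions and within each region. Regions and the interaction were fitted with the animal as a fixed block. Tests were 2-sided with Benjamini-Hochberg adjustment over 18625 probe sets, called under 0.05, and were tested on simulated data. Without missing arrays the animal mean is plain; with arrays left out, region means were removed first. An array stood apart if its median correlation with its region's other arrays was under 0.98, or that with the region's profile under 0.5.

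The members and lists were chosen with earlier results of these data known. Named genes were the Snx10 probe sets, Snx3, Snx11 and Snx12, the called sorting nexins with the largest differences (2 per region contrast), up to 3 per pathway list and contrast, 10 neighbours on either side, and 6 genes most like each probe set. Not all that the rule allows are printed.

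Arrays with 1 number come from 1 animal per the labels. Deviations from group means correlated at 0.0139 over 120 pairs of 1 animal and at -0.00184 over 1320 other pairs between regions. Alternatives covered scaling, filter, block, trend, arrays, animals and regions.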

Additional observations from a re-analysis of the deposited data

Results flagged for a closer look

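In 3 of 24 groups of arrays or animal means tested for a sample far from the others, 1 Snx10 value stood out, and chance flags about 1 in 20 groups. All 3 were at probe set 1379275_at. The accumbens array of congenic animal 9, at 6.56, lay far below the other 5 congenic arrays of that region. Through it the mean over regions of congenic animal 9, at 9.78, lay far below those of the other congenic rats. The hippocampal array of NP animal 11, at 9.23, lay below the other NP arrays of that region. Both arrays are among the 7 whose profiles stood apart from their labelled region. No value of 1383585_s_at stood out in this way.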

How the results depend on the processing

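The Snx10 difference between lines in the mean over regions kept its sign under every alternative run, at 0.42 to 0.61 for 1379275_at and -0.19 to -0.12 for 1383585_s_at. Leaving out 1 animal gave 0.44 to 0.59 and -0.19 to -0.13. In accumbens the 1379275_at difference (-0.07) turned to 0.55 without the 7 arrays and to 0.58 without the array of congenic animal 9 alone, an alternative chosen after seeing the data, as was leaving out the hippocampal array of NP animal 11. Leaving out 1 animal gave -0.21 to 0.58 there, and -0.17 to 0.00997 for 1383585_s_at, positive only without congenic animal 1.

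Calls between regions were less stable. For 1379275_at, 1 region and 4 pairs became 0 and 0 with quantile normalization, and 3 and 8 without the 7 arrays or without the array of congenic animal 9. Leaving out 1 animal gave 0 to 3 regions and 2 to 7 pairs, with 0 regions without NP animal 12 and 3 without congenic animal 9. For 1383585_s_at, 1 region and 2 pairs became 2 and 4 with quantile normalization, 0 and 1 with arrays centred on their medians, and 0 and 0 without the 7 arrays or that array alone. Leaving out 1 animal gave 0 to 2 regions and 0 to 2 pairs, with 0 regions without congenic animal 2, 4 or 9. With no replicate block, 1383585_s_at had 1 pair, and with the animal as a random replicate block 0 regions and 1 pair. The block changed no other count by over 1.5 times: without it 1379275_at kept 1 region and 4 pairs, and the sorting nexins had 84 calls between regions. The region calls of the osteoclast and osteopetrosis list, 19 as fitted, were 36 without a filter, which adds probe sets. The called neighbours were 1 at the 60th percentile filter. The cause was not tested for the other changes. Pseudocounts do not apply, since the values are logarithms.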
